A study of Homo sapiens with 8 samples.

Results

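A set of 42 genes of homologous recombination and Fanconi repair was followed in HaCaT keratinocytes under cytokine stimulation. The set is a list of gene symbols of these pathways. Its rule applies no threshold to measured values, but the list was put together with earlier results of these data known, so its counts are a description and not independent evidence. Each gene was found by its Entrez identifier among the 17131 genes of the table. All 42 were present. The set holds BRCA1 and its partners (4 genes), strand exchange factors and paralogs of the recombinase (10), genes of end sensing and resection (5), helicases (3), the Fanconi core complex with its E2 enzyme (8), the Fanconi ID complex (2), structure-selective nucleases (3), checkpoint kinases with the histone H2AX (5), and 2 genes of other repair routes, POLQ and MSH6.

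HaCaT cells are an established human keratinocyte line. M5 is a cocktail of 5 cytokines (oncostatin M, TNF-α, IL-1α, IL-17A and IL-22) that brings these cells into a psoriasis-like state. Cells of both groups received M5 at 10 ng/mL for 24 h, at 70% confluence before treatment. OTS514, an inhibitor of the kinase TOPK that the gene PBK encodes, was given at 10 nM from 12 h before M5 in 1 of the groups. There were 8 RNA libraries, 4 titled M5_O5 and 4 titled M5. Titles and treatment entries of the libraries contradict each other. By its wording, the title M5_O5 means added OTS514, but these libraries are entered as untreated, while the TOPK inhibitor is the entry of those titled M5. Groups are therefore named by title, and every direction is given between titles. No culture without M5 was analysed here, and a single immortalised line stands for keratinocytes. The labels do not say whether the 4 libraries of a group came from separate cultures, so p-values measure the spread between these libraries, which may be technical.

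Homologous recombination repairs DNA double-strand breaks by copying the sister chromatid, and cells use it mainly in S and G2 phase. Broken ends are sensed by the MRE11-RAD50-NBN complex, resected to single strands, and coated with the strand-exchange recombinase, which BRCA2 loads with the help of BRCA1 and PALB2. The Fanconi pathway handles DNA interstrand crosslinks: a core complex with the E3 ligase FANCL and the E2 enzyme UBE2T attaches ubiquitin to FANCD2 and FANCI, which direct nucleases and recombination to the lesion. ATM and ATR are the kinases that signal breaks and stalled forks to CHEK2 and CHEK1.

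The total count per library was 16113015 to 16922693 in M5_O5 and 13708055 to 16847599 in M5, where replicate 1 had the smallest. All 10 keratinocyte markers looked up were expressed, with KRT14 at a mean of 4190 CPM (counts scaled to the library total after TMM scaling). Of the 10, 8 were lower in M5_O5 past the test. Their summed level was 16920 to 18320 CPM in M5_O5 and 21620 to 23310 CPM in M5. Of 15 markers of other cells, 14 were in the table and 4 had enough counts to be tested (COL1A1, CD14, CD68 and LUM), of which 2 were lower in M5_O5. The summed level of the list was 113 to 134 CPM in M5_O5 and 137 to 184 CPM in M5. Markers of this list were not all absent, with CD68, COL1A1 and CD14 at means of 64.9, 40.8 and 35.8 CPM over the 8 libraries. PTPRC, which marks leukocytes, had 0 counts in every library, and the endothelial marker PECAM1 had at most 1. Whether these shifts have a part in the values of the repair genes was not tested. In bulk RNA, fewer cells in a given state and less RNA per cell cannot be told apart.

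Repair genes that passed the test were higher in the libraries titled M5_O5 with 1 exception. Of the 42 members, 40 had enough counts to be tested. Of these, 22 were higher in M5_O5 at an adjusted p-value under 0.05, where 19.5% of all 12434 genes tested were. FANCE was the 1 member lower past the test, where 17.6% of all genes were, and 17 members did not pass. The higher members included 10 at 2-fold or more (EXO1, RAD54L, BLM, BRCA1, UBE2T, BRIP1, FANCB, POLQ, XRCC2 and RAD51AP1), against 2.87% of all genes, and 0 members were lower by 2-fold, against 0.33% of all genes, with the lowest fold change at -0.35. Of these 10, RAD54L, EXO1, XRCC2, RAD51AP1 and FANCB would not have been tested on their M5 libraries alone, so they are no support for that count. The same genes are no support for the count of 22, nor for the median and the count above 0 that follow. The median log2 fold change was 0.397 over the tested members and 0.012 over all genes tested, and 32 of the 40 members had a value above 0. In 19 members all 4 M5_O5 libraries lay above all 4 M5 libraries (17.8% of all genes), and in 1 member all lay below (15.8%). A call means an adjusted p-value from edgeR's quasi-likelihood test with Benjamini-Hochberg adjustment over all genes tested. Levels below are TMM-scaled CPM in replicates 1 to 4 in that order, and differences are log2 fold changes of M5_O5 over M5 with their standard errors (SE).

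**Figure D1:**
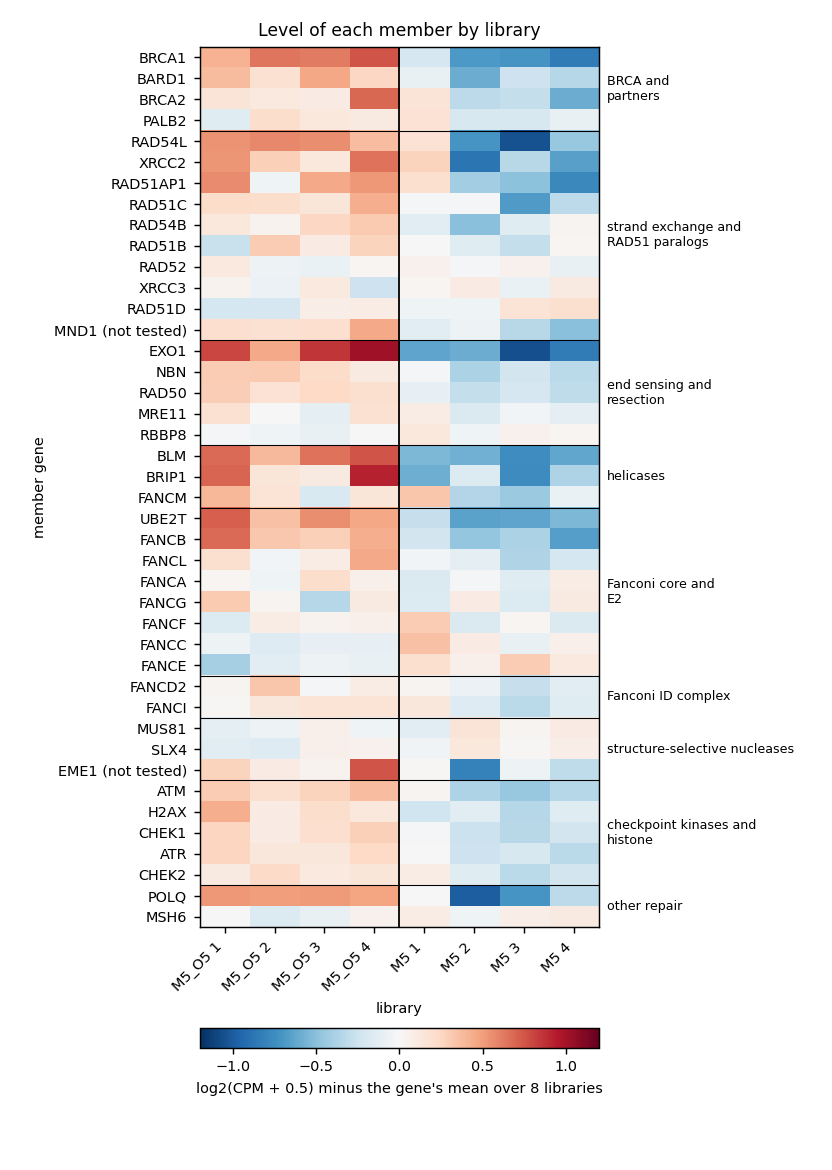
Level of the 42 members in each library, drawn as log2(CPM + 0.5) minus the mean of the gene over the 8 libraries, with members on the vertical axis grouped by role and libraries on the horizontal axis. Red marks levels above the mean and blue levels below it. EXO1, BLM and BRCA1 show wide gaps between the groups. M5 replicate 1 is the highest M5 library in higher members such as BRCA1 and in members not past the test such as PALB2.

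**Figure D2:**
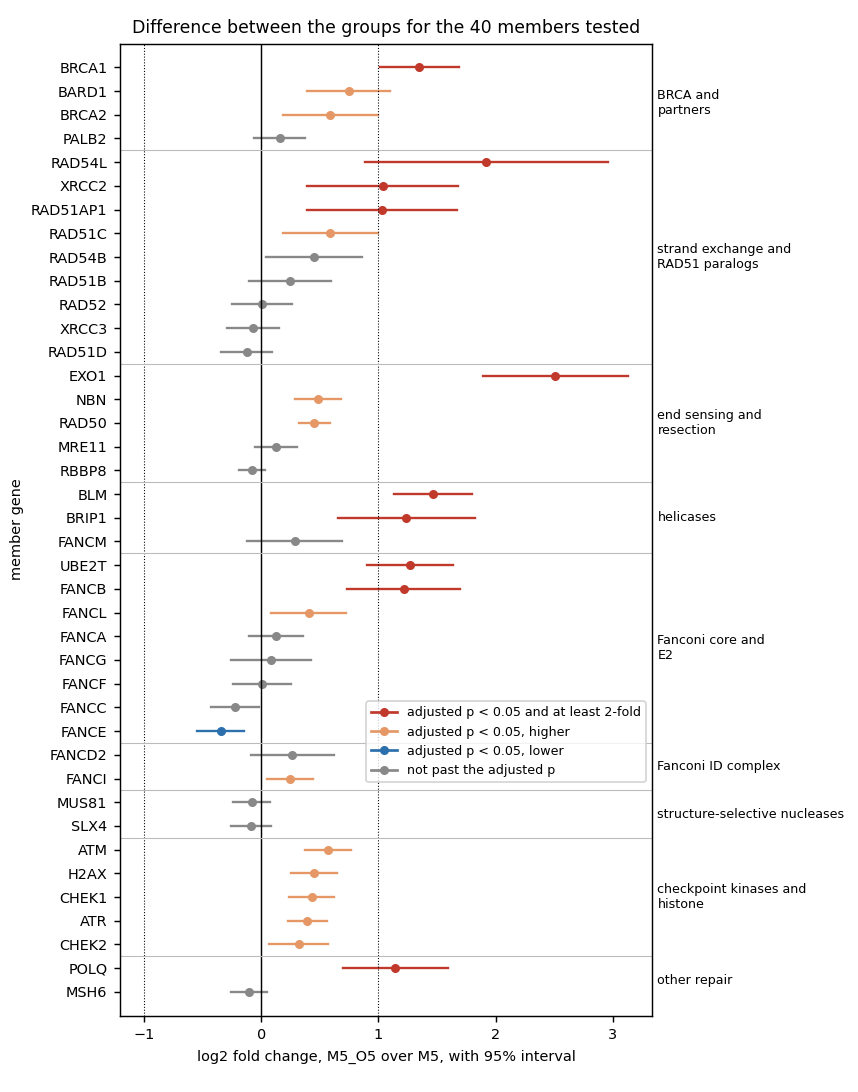
Log2 fold change of M5_O5 over M5 for the 40 tested members (points) with the 95% interval of the fit (lines), grouped by role. Dotted lines mark a 2-fold difference. The 10 members in red passed the test at 2-fold or more, and FANCE, in blue, was the 1 member lower past the test.

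Among BRCA1 and its partners, 3 of 4 were higher in M5_O5. BRCA1 (Entrez 672), the E3 ubiquitin ligase that promotes resection and recruits the recombination machinery, was measured at 6.22, 7.35, 7.23 and 7.96 CPM in M5_O5 and at 3.87, 2.61, 2.57 and 2.31 CPM in M5. All M5_O5 libraries lay above all M5 libraries, and M5 replicate 1 was the highest of the M5 group. The log2 fold change was 1.35 (SE 0.158, adjusted p = 2.54e-05), from 37 to 134 counts per library. BARD1, which forms the ligase together with BRCA1, was also higher, with mean levels of 3.66 ± 0.37 CPM in M5_O5 and 2.19 ± 0.388 CPM in M5 (SD, n = 4) and a log2 fold change of 0.75 (adjusted p = 0.00298). BRCA2, the loader of the recombinase, stood at 5.29, 5.11, 5.04 and 7.84 CPM in M5_O5 and at 5.26, 3.66, 3.75 and 2.93 CPM in M5. The groups overlapped, since M5 replicate 1 lay above M5_O5 replicates 2 and 3, and 1 M5_O5 library stood well above the others. The fold change of BRCA2 was 0.59 (SE 0.19, adjusted p = 0.0254). Without M5_O5 replicate 4 it was 0.41 with an adjusted p of 0.0966, and leaving out M5 replicates 2, 3 or 4 also ended the call (adjusted p 0.0596 to 0.0909). PALB2, the bridge between BRCA1 and BRCA2, was not past the test at 0.16 (adjusted p = 0.24), and passed it without M5 replicate 1 at 0.25 (adjusted p = 0.042).

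Of the strand exchange factors, 9 of 10 were tested and 4 were higher. RAD54L (Entrez 8438), a motor protein that helps the recombinase invade the sister strand, was measured at 0.99, 1.03, 1.01 and 0.83 CPM in M5_O5 and at 0.66, 0.13, 0 and 0.25 CPM in M5. The groups did not overlap, although the gene was near its detection limit in M5, at 0 to 9 counts. Its log2 fold change was 1.92 (SE 0.484, adjusted p = 0.00661), and 2.83 without M5 replicate 1. XRCC2 (Entrez 7516), a paralog of the recombinase, stood at 2.21, 1.78, 1.54 and 2.44 CPM in M5_O5 and at 1.75, 0.52, 0.99 and 0.69 CPM in M5. Here M5 replicate 1 lay above M5_O5 replicate 3, so the groups overlapped. The fold change of XRCC2 was 1.04 (SE 0.301, adjusted p = 0.0147). RAD51AP1 (Entrez 10635), which stimulates strand invasion, was measured at 2.03, 1.15, 1.84 and 1.96 CPM in M5_O5 and 1.46, 0.78, 0.72 and 0.5 CPM in M5. M5 replicate 1 lay above M5_O5 replicate 2, so these groups overlapped too. Its fold change was 1.03 (SE 0.298, adjusted p = 0.0143). Both calls were lost without M5 replicate 4, at 0.89 for XRCC2 (adjusted p = 0.0548) and 0.83 for RAD51AP1 (adjusted p = 0.0555), while without M5 replicate 1 the fold changes were 1.44 and 1.38. They were also lost with the expression level trend removed, at 0.81 for XRCC2 (adjusted p = 0.0569) and 0.8 for RAD51AP1 (adjusted p = 0.0575).

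Among the other 4 paralogs of the recombinase, RAD51C passed the test. RAD51C, which sits in both paralog complexes, was higher by 0.59 (SE 0.189, adjusted p = 0.0248), with 3.1 ± 0.316 CPM in M5_O5 and 2.07 ± 0.526 CPM in M5 (SD, n = 4). That call was lost without M5_O5 replicate 4 (adjusted p = 0.0761), M5 replicate 3 (0.0846) or M5 replicate 4 (0.0689). RAD51B, RAD51D and XRCC3 were not past the test, at 0.25, -0.13 and -0.07. RAD54B, a relative of RAD54L, missed the threshold at 0.45 (adjusted p = 0.0808) although its groups did not overlap. RAD52, which anneals single strands, had a fold change of 0.0024 with a 95% interval of -0.255 to 0.26. MND1, a meiotic partner of strand exchange, was too low to be tested, at 0.41, 0.4, 0.41 and 0.59 CPM in M5_O5 and 0.22, 0.26, 0.13 and 0.06 CPM in M5.

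In end sensing and resection, 3 of 5 genes were higher. EXO1 (Entrez 9156), the exonuclease of long-range resection, had the largest fold change of the 40 tested members. It was measured at 2.03, 1.49, 2.13 and 2.44 CPM in M5_O5 and at 0.44, 0.46, 0.2 and 0.31 CPM in M5. All M5_O5 libraries were far above all M5 libraries, where the gene had 3 to 7 counts. Its log2 fold change was 2.51 (SE 0.288, adjusted p = 2.17e-05). RAD50 and NBN, members of the complex that binds broken ends, were higher by 0.45 (SE 0.0614, adjusted p = 8.29e-05) and 0.48 (SE 0.0913, adjusted p = 0.00106) without overlap. MRE11, the nuclease of the same complex, was not past the test at 0.13, with a 95% interval of -0.0547 to 0.307. RBBP8, which encodes the resection factor CtIP, was the most abundant member per transcript length, at mean values of 74.3 TPM (counts scaled by transcript length and library total) in M5_O5 and 72.2 TPM in M5. Its fold change was -0.08 (adjusted p = 0.263), with an interval of -0.192 to 0.0349.

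Helicases were higher in 2 of 3 genes. BLM (Entrez 641), the helicase that dissolves recombination intermediates, was measured at 4.88, 3.91, 4.8 and 5.17 CPM in M5_O5 and at 1.82, 1.76, 1.51 and 1.68 CPM in M5. The groups were widely separated, and M5 replicate 1 lay close to the other M5 libraries. The fold change was 1.46 (SE 0.157, adjusted p = 1.23e-05). BRIP1 (Entrez 83990), a helicase that binds BRCA1, stood at 3.02, 1.9, 1.84 and 3.62 CPM in M5_O5 and at 0.95, 1.44, 0.79 and 1.18 CPM in M5. It varied within M5_O5, but the groups did not overlap, and the fold change was 1.24 (SE 0.272, adjusted p = 0.00283). FANCM, which anchors the Fanconi core complex to DNA, was not past the test at 0.29 (adjusted p = 0.256). It passed without M5 replicate 1, its highest M5 library, at 0.48 (adjusted p = 0.0326).

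The 8 genes of the Fanconi core and its E2 enzyme split, with 3 higher, 1 lower and 4 not past the test. UBE2T (Entrez 29089), the E2 enzyme that carries ubiquitin to FANCD2 and FANCI, was measured at 4.3, 3.22, 3.79 and 3.51 CPM in M5_O5 and at 1.9, 1.37, 1.38 and 1.5 CPM in M5. The groups did not overlap, and the fold change was 1.27 (SE 0.174, adjusted p = 8.44e-05). FANCB (Entrez 2187), which joins FANCL in the catalytic module of the core, stood at 2.33, 1.72, 1.66 and 1.9 CPM in M5_O5 and at 1.02, 0.78, 0.86 and 0.62 CPM in M5. Here too all M5_O5 libraries were above all M5 libraries, with a fold change of 1.22 (SE 0.225, adjusted p = 0.000883). FANCL, the E3 ligase itself, was just past the threshold at 0.40 (SE 0.151, adjusted p = 0.0487), and leaving out any library other than M5_O5 replicate 2 or M5 replicate 1 ended the call (adjusted p 0.0585 to 0.162). The FANCL call was also lost with DESeq2 (adjusted p = 0.0892), RLE scaling (0.0537), no count filter (0.0585) and the expression level trend removed (0.31). FANCE (Entrez 2178), an adaptor that binds FANCD2, went the other way, at 10.9, 13.2, 13.9 and 13.6 CPM in M5_O5 and 16.6, 15.2, 18.1 and 15.8 CPM in M5. All M5_O5 libraries lay below all M5 libraries, and the fold change was -0.35 (SE 0.0951, adjusted p = 0.0104). The call was lost at -0.23 (adjusted p = 0.0741) when scaling used library size alone. FANCC, its neighbour in the core, was at -0.22 and missed the threshold (adjusted p = 0.0827), and passed it without M5 replicate 3 at -0.29 (adjusted p = 0.0424). FANCA, FANCG and FANCF were at 0.13, 0.08 and 0.01.

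Of the substrates of the core complex, FANCI passed the test narrowly and FANCD2 did not. FANCD2 was measured at 2.56, 3.27, 2.43 and 2.67 CPM in M5_O5 and at 2.55, 2.35, 1.97 and 2.24 CPM in M5, and was not past the test at 0.26 (adjusted p = 0.226, 95% interval -0.0888 to 0.619). FANCI stood at 21.9, 24, 24.5 and 24.5 CPM in M5_O5 and at 23.9, 19.5, 17.3 and 19.6 CPM in M5. In both genes a single M5 library overlapped the M5_O5 range, which was M5 replicate 1. The fold change of FANCI was 0.24 (SE 0.0916, adjusted p = 0.0493), and the call was lost without M5_O5 replicates 2, 3 or 4 or M5 replicates 2, 3 or 4 (adjusted p 0.0955 to 0.167). DESeq2 (adjusted p = 0.0637), RLE scaling (0.0569) and removal of the expression level trend (0.116) also ended the FANCI call. Neither of the tested genes of structure-selective nucleases passed the test. MUS81, which cuts branched DNA, was at -0.08 and SLX4, the scaffold of several nucleases, at -0.09, with intervals of -0.239 to 0.0725 and -0.256 to 0.08. EME1, the partner of MUS81, was too low to be tested, at 0.7, 0.57, 0.53 and 1.19 CPM in M5_O5 and 0.51, 0.07, 0.46 and 0.31 CPM in M5.

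All 5 genes of checkpoint signalling were higher, each by less than 2-fold, and in each the groups did not overlap. ATM (Entrez 472), the kinase that responds to double-strand breaks, was measured at 48.2, 44.5, 46.8 and 50.5 CPM in M5_O5 and at 39.7, 30, 28.3 and 30.5 CPM in M5. M5 replicate 1 again stood highest in its group. The fold change was 0.57 (SE 0.0919, adjusted p = 0.00032). ATR (Entrez 545), the kinase of stalled forks, stood at 35, 32.2, 32.2 and 34.5 CPM in M5_O5 and at 29.1, 24.4, 25.4 and 23.2 CPM in M5, with a fold change of 0.39 (SE 0.0768, adjusted p = 0.00132). CHEK1 (Entrez 1111), the effector kinase of ATR, was at 17.1, 15.3, 16.4 and 17.4 CPM in M5_O5 and at 14, 11.8, 11.2 and 12.1 CPM in M5, with a fold change of 0.43 (SE 0.0895, adjusted p = 0.002). H2AX, the histone phosphorylated around breaks, was higher by 0.45 (adjusted p = 0.00167). CHEK2, the effector kinase of ATM, was higher by 0.32 (adjusted p = 0.0453), a call that was lost when any library other than M5 replicate 1 was left out (adjusted p 0.0555 to 0.141). The CHEK2 call was also lost with DESeq2 (adjusted p = 0.0861), RLE scaling (0.0513), no count filter (0.0556) and the expression level trend removed (0.336). ATM was not past the threshold in TPM with limma, at 0.45 (adjusted p = 0.0826) and 0.50 (adjusted p = 0.0801) with pseudocounts of 1 and 0.1.

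Of the remaining members, POLQ was higher and MSH6 did not pass the test. POLQ (Entrez 10721), the polymerase of microhomology-mediated end joining, was measured at 4.07, 4.02, 4.03 and 3.92 CPM in M5_O5 and at 2.7, 1.11, 1.45 and 2.06 CPM in M5. The M5_O5 libraries were nearly level and all above the M5 libraries, which spread widely. Its fold change was 1.14 (SE 0.208, adjusted p = 0.000794). MSH6, a sensor of base mismatches, was at -0.10 (adjusted p = 0.265).

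The starts of these genes were read from RefSeq promoter windows on GRCh38.p14 to see what the higher members share in sequence. Windows were found for 39 of the 42 members (all except RAD54B, NBN and FANCI), and 250 bases before the transcription start were searched on both strands. The CHR element, spelled TTTGAA, is known from promoters of genes expressed in G2 and M phase. It occurred in 3 of the 10 members higher by 2-fold (BRIP1, UBE2T and POLQ), and with ATM and H2AX in 5 of the 20 higher members with a window (25%). It occurred in 1 of 16 members that did not pass the test (FANCC), in 12.1% of all 10208 tested genes with a window, and in 20.3% of the 281 tested genes higher by 2-fold. Over all 39 members with a window, 6 held it (15.4%). With the 50 bases after the start included, the same members held it, beside 13.7% of tested genes and 26.7% of those higher by 2-fold. The windows of BRIP1, UBE2T and POLQ are shown because they carry the element among the members with the largest differences. They lie on the minus strand, at chr17:61863529-61863778 for BRIP1, chr1:202341937-202342186 for UBE2T and chr3:121545989-121546238 for POLQ, directly upstream of the start, and are written 5′ to 3′ in the direction of the gene with the match in capitals (TTTGAA, or TTCAAA where it reads on the other strand).
BRIP1: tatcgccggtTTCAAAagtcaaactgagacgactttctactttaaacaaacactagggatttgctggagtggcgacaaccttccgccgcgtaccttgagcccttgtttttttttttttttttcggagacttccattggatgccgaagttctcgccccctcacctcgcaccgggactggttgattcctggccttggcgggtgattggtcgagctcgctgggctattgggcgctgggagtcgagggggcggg
UBE2T: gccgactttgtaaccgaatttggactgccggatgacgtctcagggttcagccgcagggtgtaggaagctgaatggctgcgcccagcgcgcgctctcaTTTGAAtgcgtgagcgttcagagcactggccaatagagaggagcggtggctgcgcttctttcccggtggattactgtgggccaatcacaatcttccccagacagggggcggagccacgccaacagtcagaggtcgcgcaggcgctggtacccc
POLQ: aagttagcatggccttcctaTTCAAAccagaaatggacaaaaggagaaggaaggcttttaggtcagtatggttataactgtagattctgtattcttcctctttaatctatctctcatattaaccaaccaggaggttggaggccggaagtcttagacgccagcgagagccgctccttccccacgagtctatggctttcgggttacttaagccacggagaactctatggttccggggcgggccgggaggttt
The match begins 240 bases before the start in BRIP1, 153 in UBE2T and 230 in POLQ.

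Other promoter elements were searched in the same windows. The E2F element, known from promoters of genes expressed at the start of S phase, was searched as TTTCCCGC, TTTGGCGC, TTTCGCGC and TTTGCCGC. It was found before the start in 0 of the 20 higher members with a window, in FANCA and FANCC among the 16 members not past the test, and in 5.68% of tested genes. With the 50 bases after the start included, EXO1 and XRCC2 held a match among the higher members (2 of 20), as did FANCA, FANCC, FANCD2 and MSH6 among those not past the test (4 of 16), and 6.72% of tested genes. The CCAAT box, spelled CCAAT, occurred in 10 of the 20 higher members, 8 of the 16 not past the test and 41.9% of tested genes. A match is a string of letters and not a measured binding site, and a window without one says only that these letters are not in it.

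The members with the largest fold changes were those with low levels. Of the 10 members higher by 2-fold, the highest mean in M5_O5 was 7.19 CPM, in BRCA1. With members divided at a mean log2 CPM of 2 over the 8 libraries, 14 lay below it, of which 9 were higher by 2-fold (11.1% of all genes tested at those levels) and 11 were higher past the adjusted p (24.8%), while 0 were lower (3.68%). Their median log2 fold change was 1.09, beside 0.245 for all genes at those levels. Of the 26 members at or above the division, BRCA1 alone was higher by 2-fold (1.29% of all genes there), 11 were higher past the adjusted p (18.4%) and FANCE was lower (20.3%). Their median was 0.142, beside -0.0101 for all genes at those levels.

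**Figure D3:**
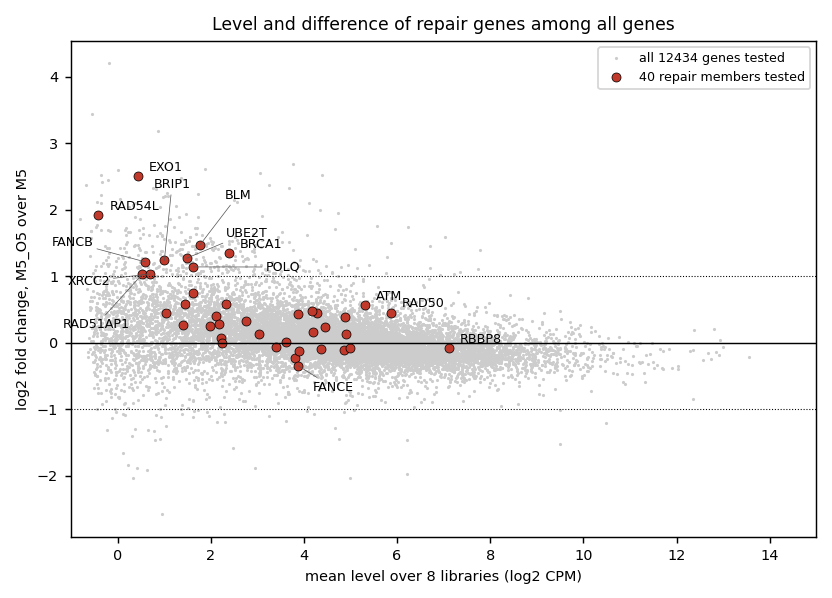
Mean level over the 8 libraries (log2 CPM, horizontal) against the log2 fold change of M5_O5 over M5 (vertical) for all 12434 genes tested (grey) and the 40 tested members (red). Dotted lines mark 2-fold. The members at 2-fold or more sit at low levels, while abundant members such as RBBP8 lie near 0.

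The filter on low counts bears on this. It kept genes that reached 0.613 CPM in 4 libraries, and 5 members (RAD54L, EXO1, XRCC2, RAD51AP1 and FANCB) reached that level in all 4 M5_O5 libraries and in fewer M5 libraries. All 5 were among the 10 members higher by 2-fold. EXO1 reached the cut-off in 0 M5 libraries, RAD54L in 1, and XRCC2, RAD51AP1 and FANCB in 3 each. The M5 libraries alone would not have brought any of them into the test. Their calls are therefore no support for the count at 2-fold or for the count of 22 higher members. Nor are EXO1, RAD54L and FANCB support for the count of non-overlapping members. All of them are among the 14 members at low levels, so the counts and the median of those 14 rest in part on them. Among the 35 members at the cut-off in all 8 libraries, 5 were higher by 2-fold (1.95% of all such genes) and 17 were higher past the adjusted p (19.1%). The 36 members with at least 10 counts in every library held 6 at 2-fold.

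Per transcript length, the mean level of the members ranged from 0.172 TPM for EXO1 in M5 to 74.3 TPM for RBBP8 in M5_O5. After RBBP8, the levels in M5_O5 were highest for H2AX (28.5 TPM) and MUS81 (24.7 TPM), neither of which was higher by 2-fold. UBE2T stood at 10.8 TPM in M5_O5 and 4.16 TPM in M5, above its E3 ligase FANCL in M5_O5 at 6.63 TPM and close to it in M5 at 4.03 TPM. BRCA1 and EXO1 were at 1.83 and 1.11 TPM in M5_O5. Splits between transcripts of a gene were unstable. The BRCA1 transcript NM_007297 had 13.4, 0, 74 and 0 estimated counts in the M5_O5 libraries and 0 in all M5 libraries, while NM_007294 had 38.4 to 127.5 in M5_O5. Transcripts were therefore not compared between groups. BRCA1, CHEK2 and FANCD2 have near-identical pseudogene copies, and RAD51D shares a read-through transcript with its neighbour, so their counts are uncertain to that extent. The sources used here do not say whether counting used the strand, so reads of antisense neighbours could not be told apart.

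Ratios between partner genes of the same complex were followed within each library. For 15 pairs, chosen after the values were seen, the log2 ratio of counts was computed in each library and compared with a two-sided exact permutation test. In 8 pairs the groups did not overlap, with the smallest p that 4 against 4 libraries allow (exact p = 0.0286, adjusted over the 15 pairs 0.0536). No pair passed the threshold after adjustment. Since the pairs were chosen with the values known, these p-values and the count of 8 describe the pairs and are no evidence. The share over other pairs of genes was not counted. BRCA1 over BARD1 was at 0.69, 1.16, 0.82 and 1.2 in M5_O5 and 0.55, 0.61, 0.15 and 0.12 in M5, a difference of 0.61 on the log2 scale. The BRCA1 over PALB2 ratio differed by 1.20, the largest difference among these 8. RAD50 and NBN over MRE11 differed by 0.33 and 0.36, RAD51C over XRCC3 by 0.69, UBE2T over FANCL by 0.86 and FANCB over FANCL by 0.80. ATM over ATR differed by 0.18 in counts and by -0.01 in TPM, so its direction depended on the unit. FANCI over FANCD2 was at 3.08, 2.86, 3.32 and 3.18 in M5_O5 and 3.21, 3.04, 3.11 and 3.11 in M5. The groups of that pair overlapped fully, with a difference of -0.004 (exact permutation p = 1). CHEK1 over CHEK2 and FANCA over FANCG differed by 0.11 and 0.06 with overlapping groups.

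**Figure D4:**
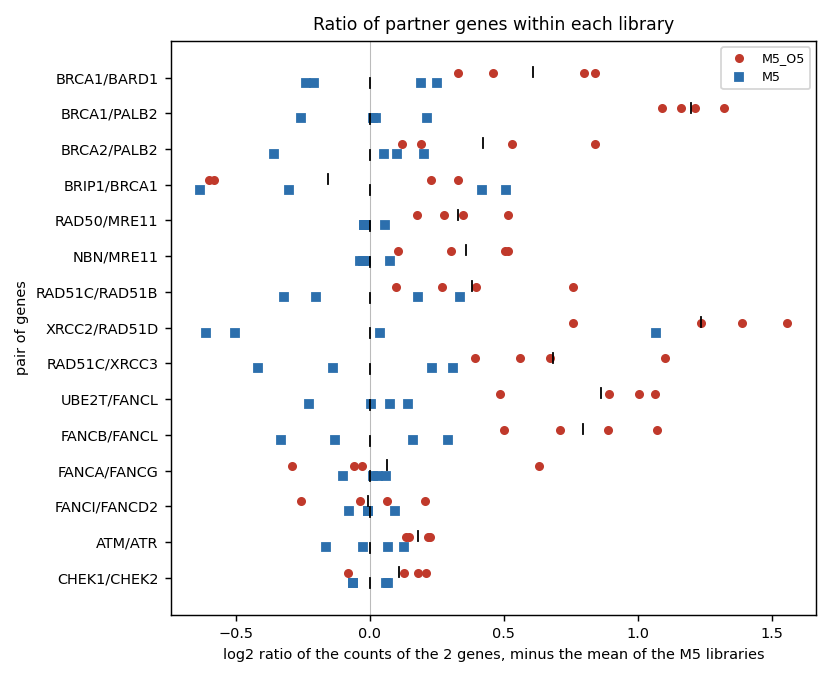
Log2 ratio of the counts of 2 partner genes in each library, minus the mean of the M5 libraries, for 15 pairs (vertical axis). Red circles are M5_O5 libraries, blue squares M5 libraries and black ticks group means. BRCA1/PALB2 and UBE2T/FANCL separate the groups, and FANCI/FANCD2 overlaps.

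Of the M5 libraries, replicate 1 had the mean level of repair genes most like that of M5_O5. Over the 40 tested members the mean log2(CPM + 1) was 3.11 in it, 2.88 to 2.94 in M5 replicates 2 to 4 and 3.25 to 3.37 in M5_O5. Single members differed: in FANCC and RBBP8, M5 replicate 1 was the M5 library farthest from the M5_O5 mean. It was the highest M5 library in 19 of the 22 higher members and in 8 of the 10 at 2-fold. It was also the highest in PALB2, RAD52, MRE11, RBBP8, FANCM, FANCC, FANCF and FANCD2, which did not pass the test. The share over all genes was not counted, so these counts describe the library and say nothing particular to the higher members. Over the 10 members at 2-fold the median position of M5 replicate 1 on the log2 scale was 37.1% of the way from the mean of the other M5 libraries to the mean of M5_O5. Without it, 24 members were higher and 10 were higher by 2-fold, while the shares over all genes tested were 22.9% and 3.7%. In the same library the mean log2(CPM + 1) of 49 genes of G2 and M phase was 3.43. It was 2.71 to 2.77 in M5 replicates 2 to 4 and 3.67 to 3.78 in M5_O5. Whether cell cycle state has a part in the levels of the repair genes was not tested.

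Lists of cell cycle genes were also counted. Of the 49 tested genes of G2 and M phase, 41 were higher (83.7%) and all 49 had a fold change above 0, with a median log2 fold change of 1.06. At 2-fold or more 31 were higher (63.3%). Of all genes tested, 19.5% were higher and 2.87% by 2-fold, and of the tested repair members 55% and 25%. The summed level of the G2 and M phase list was 1556 to 1593 CPM in M5_O5 and 1108 to 1396 CPM in M5. The 3 genes of that list with the largest fold changes were CDCA3, a mitotic entry factor (1.78), NDC80, of the kinetochore (1.55), and DLGAP5, of the spindle (1.54). Of 50 genes of S phase, 32 were higher (64%), 14 of them by 2-fold (28% of the list), and 2 were lower, with a median of 0.498. The 2-fold share was thus larger in the G2 and M phase list than in the repair members, and that of the S phase list was close to the members. These shares were not compared by a test. DSCC1, which loads the sliding clamp for cohesion, was at 2.23, RRM2, the inducible subunit of ribonucleotide reductase, at 2.22, and DTL, an adaptor of replication-coupled protein turnover, at 2.21 (adjusted p = 0.00096, 4.76e-06 and 0.000655). PBK, the gene of the kinase that OTS514 inhibits, stood at 3.6, 2.93, 2.25 and 3.15 CPM in M5_O5 and at 2.63, 0.59, 0.99 and 0.69 CPM in M5. Its groups overlapped through M5 replicate 1, and its fold change was 1.32 (SE 0.34, adjusted p = 0.00738).

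Further genes of DNA repair were counted in the same fit. Of 61 further tested genes of recombination and Fanconi repair, 15 were higher (24.6%, beside 19.5% of all genes tested). In the same list 5 were lower, where 17.6% of all genes were, and 41 were not past the test, with a median of 0.116. Genes higher by 2-fold made up 1.64% of the list and 2.87% of all genes. All M5_O5 libraries lay above all M5 libraries in 16.4% of the list and 17.8% of all genes. CLSPN, the adaptor that ATR needs to activate CHEK1, was at 4.36, 2.47, 3.56 and 3.86 CPM in M5_O5 and 1.17, 0.78, 0.53 and 0.93 CPM in M5, with a fold change of 2.06 (SE 0.248, adjusted p = 3.05e-05), and was the 1 gene of that list higher by 2-fold. SHLD3, a subunit of shieldin that limits resection, was higher by 0.81 (adjusted p = 0.0121), and TIPIN, of the fork protection complex, by 0.59 (adjusted p = 0.0153). CLSPN and TIPIN also stand in the list of S phase genes. Among 11 genes of end joining, 3 were higher (27.3%) and 1 lower, with a median of 0.0248. PAXX and PRKDC were higher by 0.50 and 0.23, and DCLRE1C, the nuclease Artemis, was lower at -0.31 (adjusted p = 0.0229, 0.0118 and 0.00343). Without M5 replicate 3 none of the 11 was higher past the test, and without M5 replicate 2 only 1 was. Among 33 tested genes of excision repair, 12 were higher (36.4%) and 2 lower, with a median of 0.147. NEIL2, a base excision glycosylase, was at 0.57, APEX1, the abasic site nuclease, at 0.54, and PARP1, which senses nicks, at 0.52 (adjusted p = 0.00621, 4.86e-05 and 5.03e-05). The largest fold changes in the end joining and excision repair lists were 0.50 and 0.57. These lists were compared with the members by counts, shares and medians only.

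**Figure D5:**
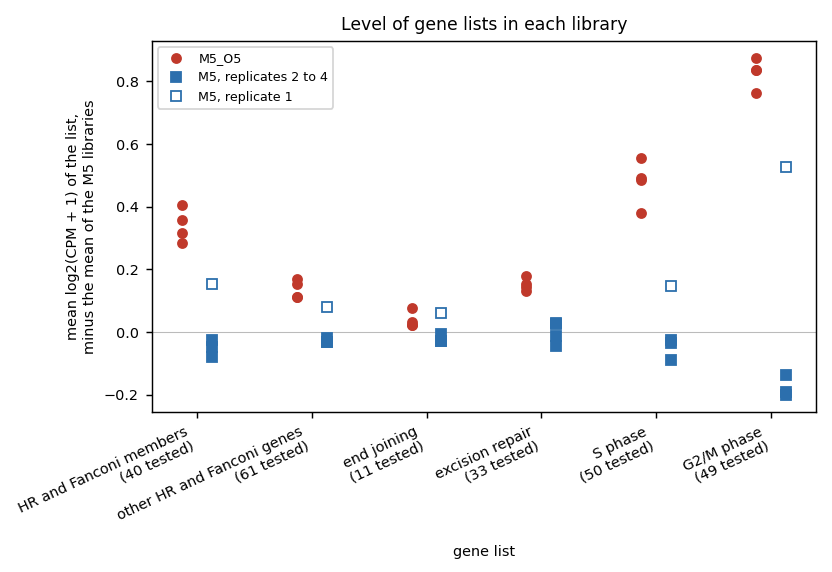
Mean log2(CPM + 1) over the tested genes of 6 lists in each library, minus the mean of the M5 libraries. Red circles are M5_O5 libraries, filled blue squares M5 replicates 2 to 4 and the open square M5 replicate 1. The G2/M and S phase lists show the widest gaps, followed by the recombination and Fanconi members, and M5 replicate 1 lies above the other M5 libraries in 5 of the 6 lists.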

How the data were processed

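RNA of HaCaT cells was sequenced in 8 libraries. Per the study's methods and processing notes, the authors filtered reads and mapped them with HISAT2 (2.1.0). The methods name StringTie for the read counts per gene. The submitters' notes also name Bowtie2 (2.2.5), RSEM (1.2.8) and the build mm10 without a role, so the counting tool was not settled. The rows are human RefSeq transcripts, so the build was not settled either, and no position was taken from the table. For each of 86639 transcripts the authors deposited an estimated count that is not normalized, and also FPKM and TPM. The deposited TPM values are scaled to a fixed sum per library, and the deposited FPKM values, which divide by length and library size, were not used here. The authors' group means were not used. Of the estimated count values 53.8% were fractional, so they were summed per Entrez gene and rounded to whole numbers.

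Symbols came from RefSeq (GRCh38.p14), used for names and promoter windows, and matched 17072 of 17131 genes. Counts were filtered with edgeR's filterByExpr (minimum count 10, 12434 genes kept), scaled by TMM and compared with the quasi-likelihood test (edgeR 4.0.16, R 4.3.3) and Benjamini-Hochberg adjustment, at an adjusted p under 0.05 with or without a 2-fold threshold. The biological coefficient of variation was 7.42%. Pairs of libraries of one group differed by a chi-square of 2.02 to 16.53 per gene, so all were counted. Depth limits genes near 10 counts most. Exact permutation tests used scipy 1.17.1.

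The members and gene lists were chosen with earlier results of these data known. Values per library are given for members called at 2-fold, for the 5 largest differences past the adjusted p in each direction, and for BRCA1, BRCA2, FANCD2, FANCI, CHEK1, ATM and ATR. PBK and the 3 largest differences past the adjusted p of each other list are named too. MND1, EME1 and the partner ratios were added after values were seen. Alternatives were DESeq2 1.42.0, RLE or library size scaling, no filter, at least 10 counts in every library, limma 3.58.1 on log2(TPM + 1) and log2(TPM + 0.1), removal of a trend with expression level, a replicate block, and each library left out. After the values were seen, the partner ratios were also run in TPM, the partner ratios and the non-overlapping members with each library left out, and the members with at least 10 counts in every library were counted in the unchanged fit.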

Additional observations from a re-analysis of the deposited data

Results flagged for a closer look

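In 120 sets of 4 libraries, 4 had a library whose gap to its nearest neighbour took up most of the range by Dixon's criterion, where chance gives about 6. BRCA2 was at 7.84 CPM in M5_O5 replicate 4, while the other M5_O5 libraries held 5.04 to 5.29 CPM. MND1, which was too low to be tested, was at 0.59 CPM in the same library and at 0.4 to 0.41 CPM elsewhere in M5_O5. The mean log2(CPM + 1) of the G2 and M phase genes was 3.43 in M5 replicate 1 and 2.71 to 2.77 in M5 replicates 2 to 4. The log2 ratio of RAD50 over MRE11 was 0.84 in M5 replicate 2, against 0.76 to 0.77.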

How the results depend on the processing

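Of the 22 members higher past the adjusted p, 14 passed it under each of the alternatives that gave a value (BRCA1, BARD1, RAD54L, RAD50, NBN, EXO1, BLM, BRIP1, FANCB, UBE2T, ATR, CHEK1, H2AX and POLQ). BRCA1, RAD54L, EXO1, BLM, BRIP1 and UBE2T were higher by 2-fold under each alternative other than limma that tested them. The 10 members at 2-fold became 6 with at least 10 counts in every library (also when the fit was unchanged), 6 with the expression level trend removed and 1 with limma on log2(TPM + 1), where the shares of all genes tested were 2.04%, 1.91% and 1.16%. The 1 lower member became 0 with library size only and with limma at either pseudocount, and 2 with the trend removed. The 22 higher members became 19 with DESeq2 and with RLE scaling, where 17.1% and 18.6% of all genes tested were higher. They became 23 with library size only and 15 with the trend removed. Calls lost with the trend removed were those of BRCA2, RAD51C, XRCC2, RAD51AP1, FANCL, FANCI and CHEK2. The median of the members was 0.513 with library size only and 0.221 with the trend removed. Higher genes numbered 25 and 6 under these settings for the further recombination and Fanconi list, and 21 and 7 for excision repair, while end joining had 5 with library size only. Of all genes tested, 31% were higher with library size only and 16.2% with the trend removed. With library size only, the median of all genes tested was 0.128. Leaving out each library in turn gave 7 to 10 members at 2-fold, 15 to 24 higher, 1 to 2 lower and 0 to 3 higher genes of end joining. Calls were gained by RAD54B with library size only (0.56, adjusted p = 0.0341) and by FANCA with limma (0.34 and 0.44, adjusted p = 0.0191 and 0.0238), and FANCC was called lower with the trend removed (-0.32, adjusted p = 0.0223). Signs turned in members that were not past the test. Under library size only these were XRCC3 0.05, RBBP8 0.04, MUS81 0.03, SLX4 0.03 and MSH6 0.01. Under limma with pseudocounts of 1 and 0.1 these were RAD51D (0.0015 and 0.0013), XRCC3 (0.04 and 0.05), RBBP8 (0.05 in both), MUS81 (0.04 and 0.05), SLX4 (0.03 in both), MSH6 (0.02 in both) and RAD52 (-0.14 and -0.18). With the trend removed these were RAD52 -0.18, RBBP8 0.03, FANCA -0.02, FANCF -0.1 and FANCG -0.11. With DESeq2 and with RLE scaling RAD52 and FANCF were at -0.01, and without the filter RAD52 was at -0.00053. With each library left out, RAD52 ranged from -0.04 to 0.03, FANCF from -0.06 to 0.12 and FANCG from -0.03 to 0.2. The ratio of ATM over ATR was -0.01 in TPM. The cause of these shifts was not tested. Same-numbered libraries deviated together by correlations of 0.2095, 0.09859, -0.003585 and 0.01297, so the numbers were not taken as pairs, and a fit with the replicate number as a block gave 22 higher, 1 lower and 10 at 2-fold. Among the tested members, depth limits EXO1, RAD54L, XRCC2 and RAD51AP1 most, with under 10 counts in at least 1 M5 library.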
